A study of Mus musculus with 4 samples.

Results

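The genes described here are 10 genes of cell cycle arrest and the p53 response: Trp53, Mdm2, Cdkn1a, Cdkn1b, Cdkn2a, Cdkn2b, Cdkn2c, Ccng1, Zmat3 and Phlda3. They were chosen by name, with earlier results of these data known. Each of the 10 had 1 row among the 51098 genes of the deposited table. RNA was sequenced from stomachs of E15.5 mouse embryos (E, embryonic day), after removal of ribosomal RNA. Fgf9_null stomachs carried the Fgf9LacZ allele in both copies (Fgf9LacZ/LacZ). Fgf9_het stomachs carried it in one copy beside a normal copy (Fgf9LacZ/+) and served as the control, so every sample held at least one LacZ allele. Each group had 2 samples, numbered 2 and 3, and whether embryos were pooled for a sample is not stated in the labels. Fgf9 encodes a secreted growth factor, and the series title names a small stomach in mice that lack it.

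p53, the product of Trp53, is a transcription factor that is kept scarce by the ubiquitin ligase Mdm2 and accumulates after DNA damage or other stress. It then raises transcription of genes that halt the cell cycle, among them Cdkn1a, and of genes that limit its own action, among them Mdm2. Cyclin-dependent kinases (CDKs) drive the cell cycle and are held back by inhibitor proteins of the Cip/Kip family (Cdkn1a, Cdkn1b, Cdkn1c) and the Ink4 family (Cdkn2a, Cdkn2b, Cdkn2c, Cdkn2d). Growing embryonic organs balance these inhibitors against the cyclins and CDKs that drive division.

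Sequence upstream of 4 of the genes is shown, because reported levels differed sharply between neighbours at the Ink4 locus and because a p53 binding motif was found before Cdkn1a and Ccng1. RefSeq promoter windows for build GRCm38.p6 existed for 9 of the 10 genes, in 12 windows, and Zmat3 had no entry. Only the 250 bases before each start were searched. The p53 motif is a pair of decamers, each with a consensus that reads the same on both strands. Allowing at most 1 mismatch, an adjacent pair of 20 bases was found in 2 of the 12 member windows and in 25 of all 32851 windows (0.0761%). Each of the 2 matches had 1 mismatch. A pair without mismatch, with a spacer of 0 to 13 bases, was found in 21 of all windows (0.0639%). Among the member windows 1 held it, the upstream one of Cdkn1a, where its second decamer is the first of the adjacent pair. A single decamer without mismatch was far more common, at 7.13% of all windows and 4 of the 12 member windows (Mdm2, Ccng1, Trp53 and Cdkn1a). In the next sequences, written 5′ to 3′ on the strand of the gene and ending before its first annotated exon, capitals mark the adjacent pair. The Cdkn1a stretch is chr17:29090729-29090975 on the plus strand and the Ccng1 stretch is chr11:40755312-40755536 on the minus strand.
Cdkn1a: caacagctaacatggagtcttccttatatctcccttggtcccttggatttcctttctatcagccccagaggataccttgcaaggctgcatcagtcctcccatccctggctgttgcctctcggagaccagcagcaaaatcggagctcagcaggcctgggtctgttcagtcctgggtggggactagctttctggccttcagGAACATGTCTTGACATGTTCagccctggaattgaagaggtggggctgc
Ccng1: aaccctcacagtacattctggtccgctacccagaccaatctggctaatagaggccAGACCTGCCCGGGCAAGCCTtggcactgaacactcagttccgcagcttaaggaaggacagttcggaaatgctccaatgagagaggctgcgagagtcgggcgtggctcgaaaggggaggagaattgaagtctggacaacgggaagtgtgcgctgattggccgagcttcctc
The adjacent Cdkn1a pair ended 32 bases before the upstream RefSeq start of the gene and 2822 bases before the downstream start. These are matches of letters, and the data hold no measurement of p53 binding.

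The Ink4 locus on chromosome 4 has 3 starts, and in the next sequences capitals mark the GC box GGGCGG or its reverse complement CCGCCC, which was present in 32.7% of all windows. The window before the p19Arf start of Cdkn2a held 40 CpG dinucleotides, more than 98.7% of all windows. The window before the p16Ink4a start held 7 and that of Cdkn2b held 12, against a median of 6 over all windows. The printed stretches are chr4:89294654-89294869 for the p19Arf start, chr4:89282193-89282442 for the p16Ink4a start and chr4:89311040-89311282 for Cdkn2b, all on the minus strand.
Cdkn2a, p19Arf start: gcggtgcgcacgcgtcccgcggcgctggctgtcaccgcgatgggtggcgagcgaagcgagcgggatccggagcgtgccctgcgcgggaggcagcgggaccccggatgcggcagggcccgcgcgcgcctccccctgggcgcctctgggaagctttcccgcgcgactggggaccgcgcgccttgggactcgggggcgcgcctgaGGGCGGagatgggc
Cdkn2a, p16Ink4a start: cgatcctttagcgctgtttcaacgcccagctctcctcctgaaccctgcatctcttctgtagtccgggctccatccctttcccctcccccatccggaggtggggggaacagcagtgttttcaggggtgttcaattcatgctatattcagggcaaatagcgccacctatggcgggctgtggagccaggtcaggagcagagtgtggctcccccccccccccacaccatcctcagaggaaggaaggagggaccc
Cdkn2b: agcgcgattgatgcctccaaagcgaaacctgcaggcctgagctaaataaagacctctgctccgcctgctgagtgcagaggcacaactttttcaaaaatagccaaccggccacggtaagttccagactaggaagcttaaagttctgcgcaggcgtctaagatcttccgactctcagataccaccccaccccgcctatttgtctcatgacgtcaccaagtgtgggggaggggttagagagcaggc
A GC box was found in the first of these stretches and in neither of the others.

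The gene that defines the groups did not separate them. Fgf9 had 133 and 131 estimated reads in Fgf9_null replicates 2 and 3, and again 133 and 131 in Fgf9_het replicates 2 and 3. The labels do not say which part of the gene the allele lacks, so this level does not check the genotype. Same-numbered columns of the 2 groups held equal estimated reads (within 0.001 reads) for 54.7% of genes in the replicate 2 columns and 53.6% in the replicate 3 columns, against 1.39% to 1.41% between columns of different number. Over all genes, chi-square per degree of freedom was 4.46 and 4.64 for the same-numbered pairs, against 5.50 to 10.6 for the other pairs. Most of the value for the same-numbered pairs came from 4 genes, those with an edgeR unadjusted p under 0.05 between these columns. Leaving aside these 4, which were thus chosen for differing, chi-square divided by its degrees of freedom was 0.000792 between the replicate 2 columns and 0.00385 between the replicate 3 columns, where separate draws of reads give about 1. Columns of different number then gave 5.49 to 5.50. Outside these 4 genes the difference between same-numbered columns was below sampling noise, so each such pair was counted as 1 sample, called library 2 and library 3 here. Which genotype either library had is not settled by these data. Column totals were 19537211 and 22713416 reads in Fgf9_null and 19269851 and 22425865 reads in Fgf9_het, and levels are given as CPM (reads of a gene divided by the column total and scaled to a common total), mean ± SD over n = 2 libraries. All 9 stomach markers (among them Barx1 of the gastric mesenchyme and Krt8 of the epithelium) reached at least 1 CPM in both libraries.

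Under the 2 genotype labels the 10 genes had the same reads to within 3 reads. Trp53 had 1385 and 1698 reads in Fgf9_null replicates 2 and 3, against 1385 and 1698 in Fgf9_het. Its inhibitor Mdm2 had 788 and 841 reads in Fgf9_null, against 789 and 842 in Fgf9_het. In each pair the groups overlapped fully, and the replicates of one group differed more than the groups did.

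The Cip/Kip inhibitors gave the same picture. Cdkn1a, which encodes p21, the p53-induced inhibitor of Cdk2, had 576 and 578 reads in Fgf9_null, against 575 and 577 in Fgf9_het. Cdkn1b, which encodes p27, had 769 and 931 reads in Fgf9_null, against 770 and 929 in Fgf9_het. The replicate 3 column was the higher one for Cdkn1b under both labels.

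The Ink4 genes were the least counted members. Cdkn2c, which encodes p18Ink4c, had 272 and 270 reads in Fgf9_null, against 272 and 270 in Fgf9_het. Cdkn2b, which encodes p15Ink4b, had 56 and 53 reads in Fgf9_null, against 56 and 54 in Fgf9_het. Cdkn2a had 3 and 1 reads in Fgf9_null, against 3 and 1 in Fgf9_het, which is at or under the floor of 3 counts used here for detection.

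The remaining p53 targets were well counted. Ccng1, which encodes cyclin G1, had 851 and 885 reads in Fgf9_null, against 851 and 886 in Fgf9_het. Zmat3, which encodes an RNA-binding zinc finger protein, had 1621 and 1667 reads in Fgf9_null, against 1624 and 1668 in Fgf9_het. Phlda3, whose protein restrains Akt signalling, had 405 and 435 reads in Fgf9_null, against 405 and 436 in Fgf9_het. No member separated the groups.

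**Figure D1:**
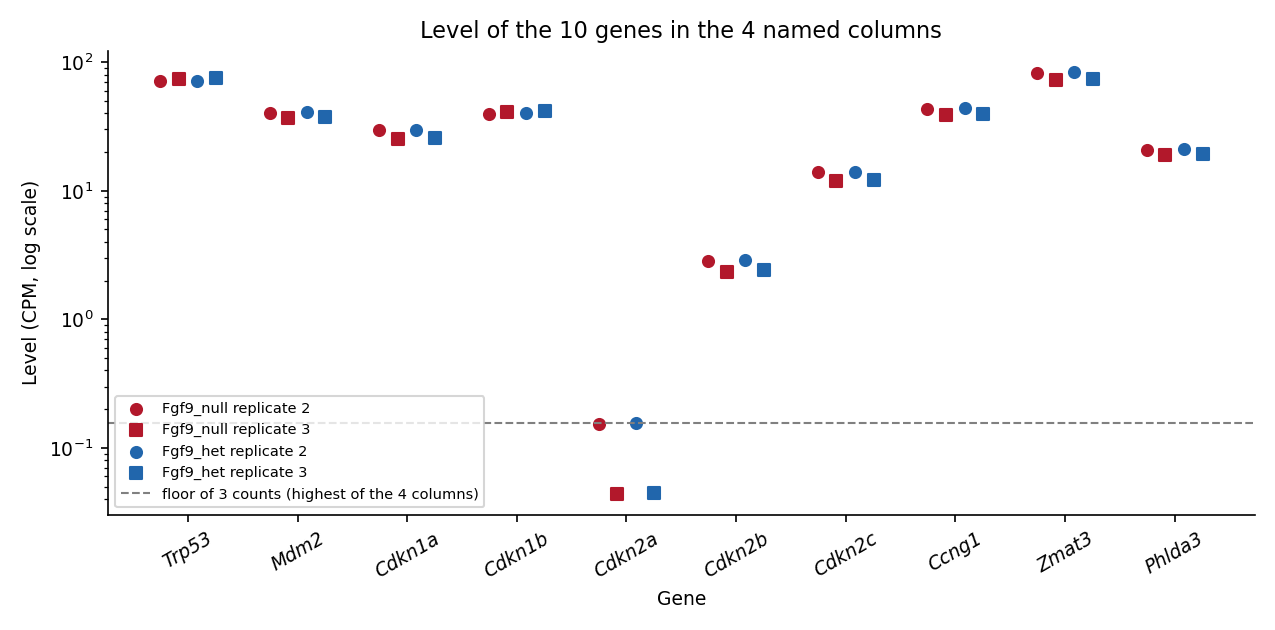
Level of each of the 10 genes (CPM, log scale) in the Fgf9_null columns (red) and the Fgf9_het columns (blue), with circles for replicate 2 and squares for replicate 3. The same-numbered points of the groups sit at the same height for every gene, and the Cdkn2a points lie at or below the dashed floor of 3 counts.

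The design sets Fgf9_null stomachs against Fgf9_het stomachs. At a Benjamini-Hochberg adjusted p under 0.05, the quasi-likelihood test of edgeR found 0 changed genes among 19987 (0%), and so 0 of the 9 members that passed its filter on low counts. Cdkn2a did not pass the filter. The largest absolute log2 fold of Fgf9_null over Fgf9_het among the 9 was -0.012 (SE 0.163) for Cdkn2b, and every member had an edgeR adjusted p of 1. For Trp53 the log2 fold was 0.00031 (SE 0.056), for Cdkn1a 0.0028 (SE 0.11) and for Zmat3 -0.0015 (SE 0.091). The median log2 fold was -0.00045 over the members and 0.00030 over all genes tested. Over all genes 4 had an unadjusted p under 0.05, DESeq2 called 3 (0.0101%) and edgeR with the replicate number as a block called 6 (0.0300%), with 0 members among the calls of either. Because each library is present under both labels, none of these values measures an effect of Fgf9.

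Other genes of the pathway did not separate the labels either. edgeR called 0 of the 2 other CDK inhibitors, 0 of 15 p53 family and regulator genes, 0 of 24 other p53 targets and 0 of 12 cyclins and CDKs in either direction. The largest absolute log2 fold in these lists was 0.0065, among the other p53 targets.

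With the labels set aside, the libraries give the level of each gene in E15.5 stomachs of unsettled genotype. Whether the libraries differ in genotype is not known, so such a difference cannot be told apart from other spread between them. Levels of different genes are compared per length, as CPM per kilobase of the longest coding transcript in GENCODE M21. Trp53 (chromosome 11, 69580359 to 69591873, plus strand) was the highest at 39.3 ± 1.46 CPM per kilobase, above 92.7% of the protein-coding genes that reached 1 CPM in both libraries. Then came 4 of the 5 p53 targets, and the other, Zmat3, stood below them. Phlda3 (chromosome 1, 135766119 to 135769136, plus strand) stood at 14.0 ± 0.777 CPM per kilobase and Cdkn1a (chromosome 17, 29090976 to 29100727, plus strand) at 13.3 ± 1.39. Mdm2 (chromosome 10, 117688875 to 117710758, minus strand) stood at 12.4 ± 0.763 CPM per kilobase and Ccng1 (chromosome 11, 40748552 to 40755311, minus strand) at 11.8 ± 0.931. Each of these 4 genes overlapped its neighbour in the order when the ranges of the libraries were compared, although both libraries gave the same order. Phlda3 lay wholly above Mdm2 and Ccng1.

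Below these genes the neighbours were apart in both libraries. Zmat3 (chromosome 3, 32334792 to 32366014, minus strand) had 10.1 ± 0.882 CPM per kilobase, and Cdkn1b (chromosome 6, 134920401 to 134925513, plus strand) had 8.88 ± 0.240. The Ink4 gene Cdkn2c (chromosome 4, 109660876 to 109667189, minus strand) had 5.26 ± 0.588 CPM per kilobase. Cdkn2b had 1.89 ± 0.262 CPM per kilobase, and only 16.5% of the protein-coding genes in the comparison were lower. Cdkn2a came last, at 0.173 CPM per kilobase in library 2 and 0.0495 in library 3. The median over the 10 genes was 11.0 CPM per kilobase, against 7.92 over the protein-coding genes.

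The order above Cdkn2c depends on the length used. Counted per union of all annotated exons, Trp53 stayed first at 18.1 CPM per kilobase, while Cdkn1a had 7.77, Mdm2 7.67 and Zmat3 6.89, all below Cdkn1b at 8.88. The estimated reads of Trp53, Mdm2, Cdkn1a and Zmat3 were not whole numbers in every column (tolerance 0.001 reads), whereas those of the other 6 genes were. The pseudogene Trp53-ps was listed at 0 in all 4 columns. Cdkn1a shares 273 exon bases with AC167363.2, an annotated transcript on the opposite strand that has no row in the table. Without a stated strand setting, reads of that overlap cannot be told apart, so the Cdkn1a level is uncertain to that extent.

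**Figure D2:**
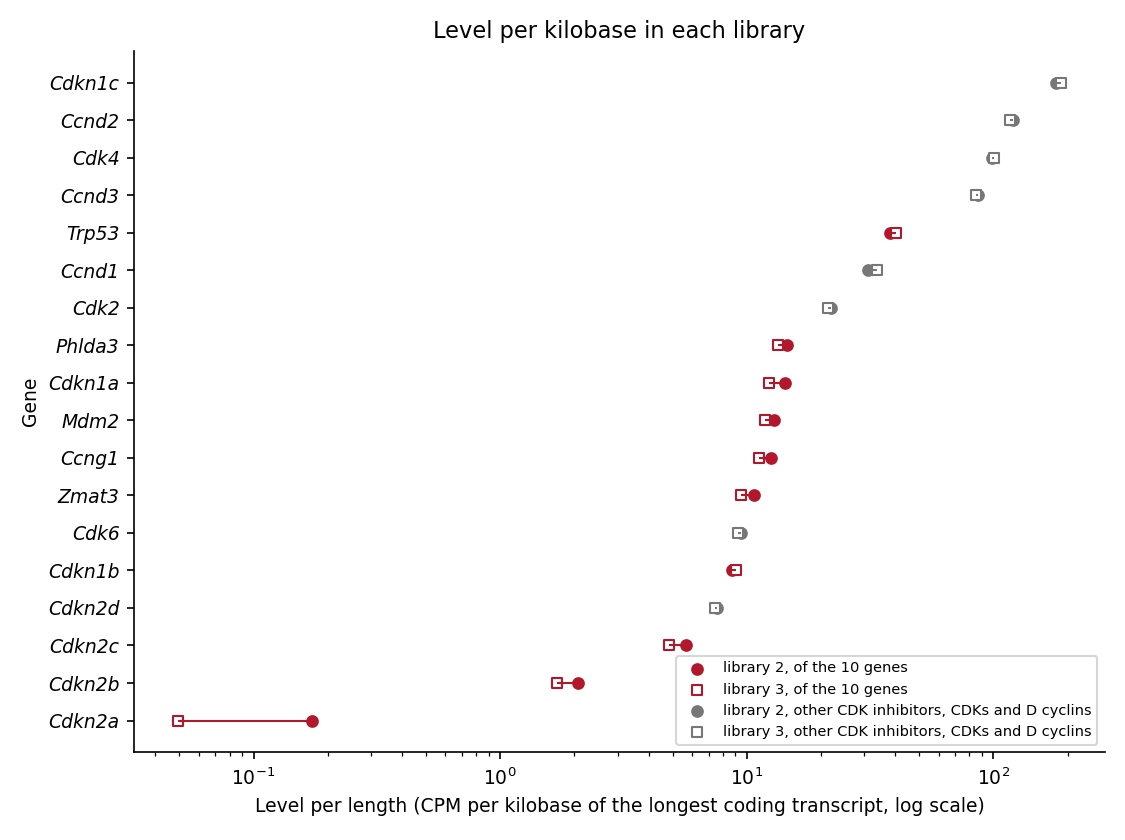
Level per kilobase of the longest coding transcript (CPM per kilobase, log scale) in library 2 (filled circles) and library 3 (open squares), for the 10 genes (red) and for other CDK inhibitors, CDKs and D-type cyclins (grey). Trp53 is the highest of the 10 genes and Cdkn2a the lowest, and Cdkn1c, at 183 CPM per kilobase, lies above all others shown.

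Among the CDK inhibitors, one outside the 10 genes had the highest level. Cdkn1c, the third Cip/Kip gene, which is imprinted and encodes p57, had 183 ± 5.83 CPM per kilobase. The 3 Cip/Kip genes together summed to 205 ± 4.68 CPM per kilobase, most of it from Cdkn1c. Cdkn2d, the fourth Ink4 gene, had 7.48 ± 0.0997 CPM per kilobase, above Cdkn2c in both libraries. The 4 Ink4 genes together summed to 14.7 ± 1.04 CPM per kilobase. The kinase genes Cdk2, Cdk4 and Cdk6 summed to 130 ± 0.733, below the Cip/Kip sum and above the Ink4 sum. Most of that kinase sum was Cdk4, a target of the Ink4 proteins, at 99.3 ± 1.28 CPM per kilobase. Cdk2 had 21.7 ± 0.366 CPM per kilobase, above Cdkn1a and Cdkn1b, and Cdk6 had 9.35 ± 0.176, which was below Cdkn1a and above Cdkn1b. These sums and orders use the longest coding transcript. Per union of all exons Cdkn1a had 7.77 CPM per kilobase, and genes outside the 10 were not compared by that length. The D-type cyclins, which activate Cdk4, had 118 ± 2.13 (Ccnd2), 85.9 ± 0.821 (Ccnd3) and 32.4 ± 1.87 (Ccnd1) CPM per kilobase. These are RNA levels of the whole organ, in which fewer cells of a type and less RNA per cell cannot be told apart.

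At the Ink4 locus, an expressed gene lay next to one that was barely counted. Cdkn2b (chromosome 4, 89306299 to 89311039, minus strand) lies 11645 bases upstream of Cdkn2a (chromosome 4, 89274471 to 89294653, minus strand). The 56 reads of Cdkn2b in replicate 2 of Fgf9_null had an exact Poisson 95% interval of 42.3 to 72.7, and the 3 reads of Cdkn2a one of 0.619 to 8.77. In replicate 3 the intervals were 39.7 to 69.3 reads for Cdkn2b and 0.0253 to 5.57 reads for Cdkn2a. They cover counting error only and did not overlap in either library. Cdkn2a encodes p16Ink4a, a CDK inhibitor, and p19Arf, which stabilises p53 by binding Mdm2, from transcripts that start 12461 bases apart. The transcripts share 575 of their 852 and 895 bases, and counts per gene do not tell them apart. With 1 to 3 reads, neither transcript was detectable above the floor at this depth.

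**Figure D3:**
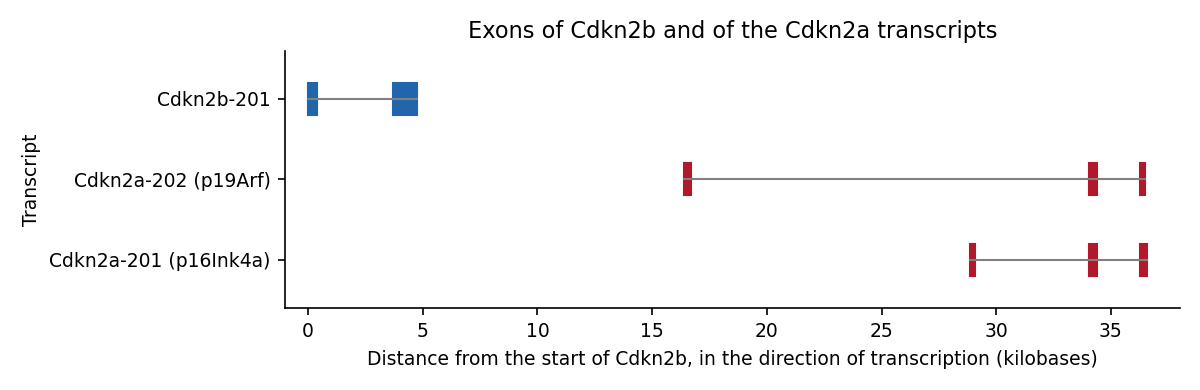
Exons (boxes) and introns (lines) of Cdkn2b (blue) and of the Cdkn2a transcripts (red), by distance in kilobases from the start of Cdkn2b in the direction of transcription. The p19Arf transcript starts 12461 bases before the p16Ink4a transcript, and both use the same second exon.

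Between the libraries, all 5 p53 targets among the 10 genes had a higher level in library 2, against 54.2% of all genes. Trp53 itself had a lower level there, within counting error. Zmat3 had 83.6 CPM in library 2, against 73.9 CPM in library 3, a ratio of 1.13 (95% counting interval 1.06 to 1.21). Cdkn1a had 29.7 CPM in library 2, against 25.6 CPM in library 3, a ratio of 1.16 (1.03 to 1.31). Ccng1 had 43.9 CPM in library 2, against 39.2 CPM in library 3, a ratio of 1.12 (1.02 to 1.23). These 3 ratios lay above 1 by more than counting error, as did those of 12.7% of all genes.

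The intervals of the other targets included 1. Mdm2 had 40.7 CPM in library 2, against 37.3 CPM in library 3, a ratio of 1.09 (0.989 to 1.20). Phlda3 had 20.9 CPM in library 2, against 19.3 CPM in library 3, a ratio of 1.08 (0.941 to 1.24). Trp53 had 71.4 CPM in library 2, against 75.2 CPM in library 3, a ratio of 0.949 (0.883 to 1.02), so the direction of Trp53 is not resolved by its counts.

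Among the CDK inhibitors, Cdkn1b had 39.7 CPM in library 2, against 41.2 CPM in library 3, a ratio of 0.962 (0.874 to 1.06). Cdkn2c had 14.0 CPM in library 2, against 12.0 CPM in library 3, a ratio of 1.17 (0.987 to 1.39). Cdkn2b had 2.89 CPM in library 2, against 2.37 CPM in library 3, a ratio of 1.22 (0.815 to 1.79). All 3 intervals included 1. Cdkn2a, with 3 reads in library 2 and 1 read in library 3, had a ratio of 3.49 whose interval ran from 0.280 to 183.

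**Figure D4:**
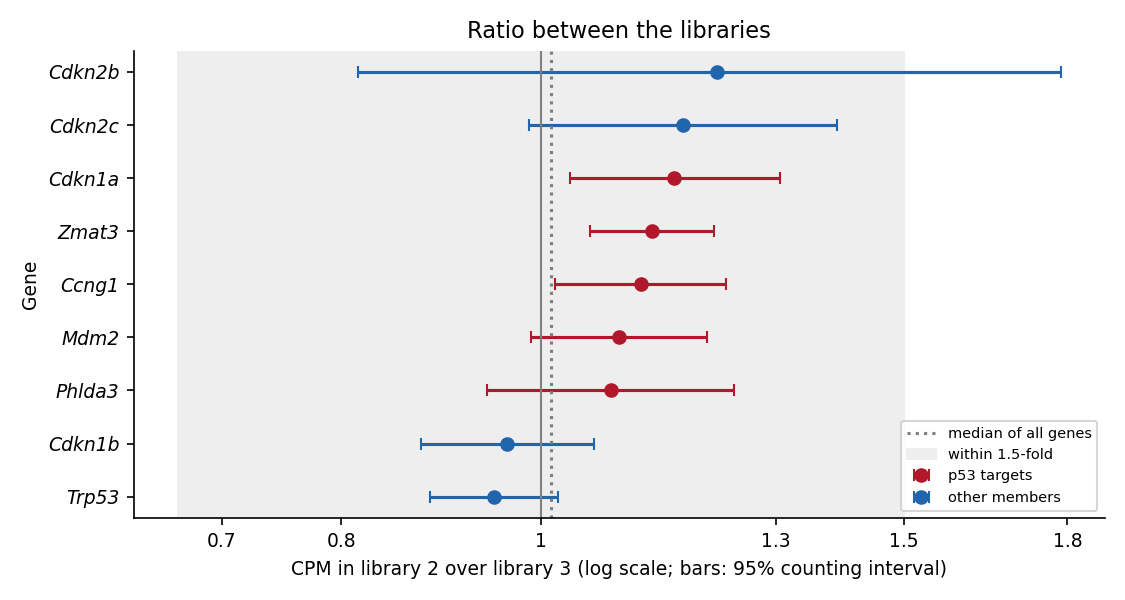
Ratio of CPM in library 2 over library 3 (log scale) with 95% counting intervals for the 9 genes with at least 1 CPM in both libraries, p53 targets in red and the others in blue. Only Cdkn1a, Zmat3 and Ccng1 have intervals that lie wholly above 1, and all 9 ratios lie within 1.5-fold.

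Of the 9 members with at least 1 CPM in both libraries, 7 were higher in library 2, against 54.2% of 16712 genes. Their median ratio was 1.12, against 1.01 over all genes. The counting interval lay above 1 for 3 of the 9, against 12.7% of all genes, and below 1 for 0 of the 9, against 10.3%. These shares depend on depth, since well counted genes have narrower intervals. A ratio past 1.5-fold in either direction was reached by 0 of the 9 members and by 3.88% of all genes, of which 2.52% of all genes lay toward library 2 and 1.36% toward library 3. Each library is 1 sample, so the intervals compare these libraries and have no replicate check. The members were chosen with a shift of such genes toward library 2 already known. Their distance from the shares of all genes is therefore no independent support.

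The other p53 targets, a list also chosen with earlier results known, leaned less far. Of 24 listed, 23 had at least 1 CPM in both libraries, 16 of these were higher in library 2, and their median ratio was 1.03. The 3 with the most CPM, a measure that favours long transcripts, were Btg2, Plk2 and Ei24. Btg2, an antiproliferative gene, had 80.7 CPM in library 2, against 79.0 CPM in library 3. Plk2, a kinase gene, had 56.3 CPM in library 2, against 55.6 CPM in library 3, and Ei24 had 53.8 CPM in library 2, against 49.9 CPM in library 3. The counting interval lay above 1 for 4 of the list, against 12.7% of all genes, and below 1 for 2, against 10.3%. The 4 were Perp, Sesn2, Trp53inp1 and Eda2r and the 2 were Gadd45a and Xpc, all 6 named after their values were seen. Perp, which is also a gene of squamous epithelium, had a ratio of 1.33 (1.21 to 1.46), and the growth arrest gene Gadd45a one of 0.708 (0.541 to 0.928).

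Genes of other cell types and of the cell cycle moved between the libraries as well. All 10 forestomach squamous markers were higher in library 2, against 54.2% of all genes. The counting interval lay above 1 for 8 of them, against 12.7% of all genes. Their summed level was 1106 CPM in library 2 and 757 CPM in library 3. The p53 relative Trp63, which specifies squamous epithelium, had 21.9 CPM in library 2, against 12.9 CPM in library 3, a ratio of 1.70 (1.46 to 1.98). Only 1 of 15 S phase markers was higher in library 2, against 54.2% of all genes. For 10 of the 15 the counting interval lay below 1, against 10.3% of all genes, and for 1 above 1. These markers summed to 1194 CPM in library 2 and 1341 CPM in library 3. Liver markers summed to 35.7 CPM in library 2 and 60.1 CPM in library 3, of which 17.8 and 21.6 CPM were Apoa1. Only 4 of the 8 liver genes had at least 1 CPM in both libraries. All 4 had a counting interval below 1, against 10.3% of all genes. Erythroid markers, 7 of 9 with at least 1 CPM in both libraries, summed to 1154 and 1590 CPM, and skeletal muscle markers to 259 and 225 CPM. Of this last sum, 227 and 201 CPM were Des, which smooth muscle also expresses. Of the 9 skeletal muscle genes, 5 had at least 1 CPM in both libraries, Des among them, and all 5 were higher in library 2. Of these 5, 2 were over 1.5-fold higher there, against 2.52% of all genes. The counting interval lay above 1 for 3 of them, against 12.7% of all genes. Mylpf, also of this list, had 0.928 CPM in library 2, against 1.33 CPM in library 3, a ratio of 0.698 (0.366 to 1.29). The muscle factors Myod1 and Myog each had under 0.2 CPM in both libraries. Immediate early markers summed to 654 CPM in library 2 and 885 CPM in library 3. The part of these differences in the ratios of the 10 genes was not tested.

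No cyclin or CDK of the list differed between the libraries by over 1.5-fold, as only 3.88% of all genes did. Of 12, 4 were higher in library 2, against 54.2% of all genes, and the median ratio was 0.965. The counting interval lay above 1 for 1 of them, Ccnd2, against 12.7% of all genes, and below 1 for 3, against 10.3%. The 3 were Cdk1 at 0.840 (0.772 to 0.913), Ccnb1 at 0.886 (0.813 to 0.967) and Ccnd1 at 0.922 (0.872 to 0.974), named after their values were seen. Ccnd2 had 758 CPM in library 2, against 739 CPM in library 3, a ratio of 1.026 (1.003 to 1.049). Its interval includes the median ratio of 1.011 over all genes, so its place above 1 depends on the scaling. Cdk4 had 202 CPM in library 2, against 206 CPM in library 3. Cdkn1c had 340 CPM in library 2, against 356 CPM in library 3, a ratio of 0.956 (0.925 to 0.988), on the other side from Cdkn1a.

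**Figure D5:**
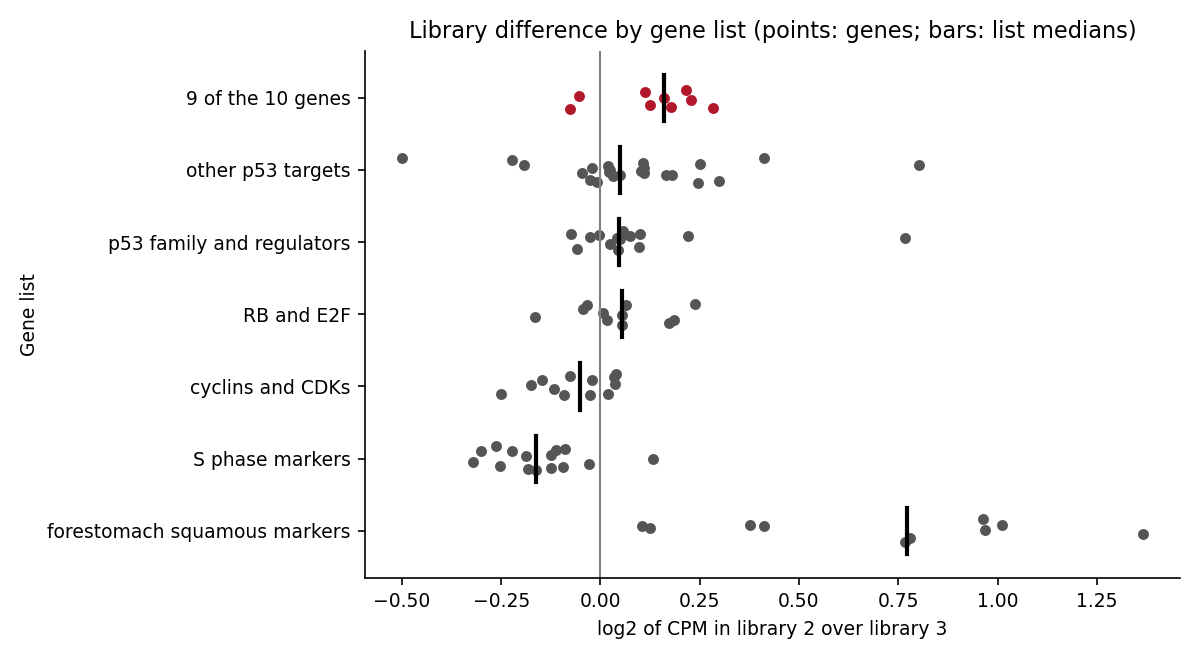
Log2 of CPM in library 2 over library 3 for each gene with at least 1 CPM in both libraries, by gene list, with a bar at each list's median. The 9 plotted members centre at 0.16, the other p53 targets at 0.049, the S phase markers at -0.16 and the squamous markers at 0.77.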

How the data were processed

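The authors deposited 1 table of estimated counts for Ensembl genes, without scaling to depth. Salmon 1.8.0, Trimmomatic 0.33, FastQC 0.10 and edgeR, with build GRCm38 (mm10), are listed in the submitters' processing notes. For their roles, the transcript index and the strand setting, nothing is given in the sources used here. Samples were grouped by the genotype label. Their titles call the Fgf9LacZ/+ samples WT. Columns were matched to samples by title, and 2 further columns without a name were not used. Whether each name stands over its own column could not be settled.

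Counts were rounded and tested over the whole table with edgeR 4.0.16 in R 4.3.3 (TMM, filterByExpr, quasi-likelihood test, adjusted p under 0.05 by Benjamini-Hochberg), and with DESeq2 1.42.0. Both were tested on simulated data. P-values measure only the spread between columns, which may be technical. The numbers in the titles pair the columns, since same-numbered columns hold the same library (r of their deviations from the group means 0.999 over 19412 genes). Ratio intervals (95%) are exact binomial, conditional on the summed reads of a gene, and cover counting error only, as do the Poisson intervals. A floor of 3 counts was 0.132 to 0.156 CPM. Coordinates and transcript lengths came from GENCODE M21 (GRCm38), in which 50870 of the 51098 genes were found.

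All 10 members are named. Of the other lists, up to 3 genes with the highest mean CPM are named, with both other CDK inhibitors, and any further gene was picked by its role or after its values were seen. No gene is named for likeness of pattern, because 2 libraries give no profile. Members and lists were chosen with earlier results of these data known, including that cell cycle inhibitor and p53 target genes were shifted toward library 2, so this direction is no independent support.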

Additional observations from a re-analysis of the deposited data

How the results depend on the processing

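The 0 calls of edgeR remained 0 with RLE factors and without the filter on low counts. DESeq2 called 3 genes, edgeR with the replicate block (the library number as a term) called 6, and leaving out 1 column gave 1 to 2. No member was called under any of these settings, with the block or otherwise. Leaving out 1 column sets the libraries against each other in unequal numbers, where the single column left is taken to vary as the other group does, and turned the sign of every member's log2 fold: -0.0491 to 0.0496 for Trp53, -0.0536 to 0.0506 for Mdm2, -0.0953 to 0.10 for Cdkn1a, -0.0391 to 0.0391 for Cdkn1b, -0.15 to 0.12 for Cdkn2b, -0.11 to 0.11 for Cdkn2c, -0.0719 to 0.0699 for Ccng1, -0.0816 to 0.0794 for Zmat3 and -0.0486 to 0.0458 for Phlda3. The log2 fold of Ccng1 was 1.2e-05 with RLE factors, on the other side of 0. Cdkn2a did not pass the filter, and no fold is given for it.

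The summed level of the 10 genes, 336 CPM, was 410 CPM with 6 non-coding genes left out of the library size, which raises every level by construction. These 6 were the most abundant outside the mitochondrial chromosome. The count of 7 of 9 members higher in library 2 kept its value with TMM scaling and with the columns of either label alone. Lengths as the union of exons, an alternative chosen after seeing the data, moved 5 of the 10 levels per kilobase by more than 1 SD. Depth limits Cdkn2a and Cdkn2b, and 2 libraries limit every comparison.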

Other observations

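RB and E2F genes, which act downstream of the CDKs, were all expressed, with 11 of 11 at 1 CPM or more in both libraries. The 3 with the most CPM, a measure that favours long transcripts, were E2f4, a mostly repressive E2F, at 55.4 ± 1.21 CPM (SD, n = 2 libraries), E2f3 at 45.1 ± 3.84 CPM and the RB relative Rbl2 at 37.0 ± 0.620 CPM. Per kilobase E2f4 was again the highest, at 27.8 ± 0.607, while E2f6, E2f1 and E2f8 stood above E2f3 and Rbl2. Between the libraries, the median ratio of the 11 genes was 1.04, against 1.01 over all genes. Of the 11, 2 had a counting interval above 1 (Rb1 and E2f3), against 12.7% of all genes. For 1, E2f1, it lay below 1, against 10.3% of all genes. Rb1 had 19.5 CPM in library 2, against 16.5 CPM in library 3, a ratio of 1.18 (95% counting interval 1.02 to 1.37). E2f3 had a ratio of 1.13 and E2f1 one of 0.893. These 3 ratios were picked after their values were seen.

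Regulators known to act at the Cdkn2a locus were expressed while Cdkn2a was at or under the floor. All 10 of these genes reached 1 CPM in both libraries. Kdm6b, a histone demethylase, had 227 ± 3.90 CPM, the architectural factor Hmga2 92.3 ± 5.49 CPM and the Polycomb methyltransferase Ezh2 69.7 ± 0.708 CPM (SD, n = 2 libraries). Per kilobase these were closer, at 34.2 ± 0.586 for Kdm6b, 24.2 ± 1.44 for Hmga2 and 25.0 ± 0.254 for Ezh2. Among the p53 regulators, those with the most CPM, not corrected for length, were the kinase gene Hipk2 at 422 ± 12.0 CPM and the acetyltransferase genes Crebbp at 353 ± 12.9 CPM and Ep300 at 221 ± 2.91 CPM. Trp73, the third p53 family gene, had 0.515 CPM in library 2, against 0.798 CPM in library 3 and was named after its values were seen.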
